A study of Arabidopsis thaliana with 6 samples.

Results

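ORA47, DREB26 and 8 of their relatives belong to the A-5 group of the DREB family, and their transcripts were measured by RNA-seq in seedlings of Arabidopsis thaliana. The 10 genes were chosen by their locus identifiers with the cnd1-3 and Col-0 values already known, as relatives that differ in opposite directions between the genotypes. Their levels and differences are therefore given as a description, with no test. The annotation holds 15 A-5 genes, so 5 were not among those chosen. The table has 32948 genes, and 17096 of them reached the minimum level for testing, a mean of 0.5 FPKM (fragments scaled to exon length and library size) over the 6 libraries.

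The line cnd1-3, a mutant of CND1, which the series title ties to the stability of the nuclear and chloroplast genomes, has 3 libraries. The wild type Col-0 also has 3 libraries, and the comparison asks how gene expression in the mutant differs from it. Poly(A) RNA of whole seedlings was sequenced, with no treatment named, and the sources used here give neither plant age nor growth conditions. CND1 was not matched to a locus, so the targeted gene was not read, and whether cnd1-3 is a single line or insertion is not stated. Nothing says that the libraries of a genotype came from separate plants. Every p-value sets the genotype difference against the spread between libraries of the same genotype, which may be technical. The library sizes implied by the table were 22303431, 22125814 and 23081866 reads for cnd1-3 replicates 1, 2 and 3, against 30455907, 26309769 and 23290031 reads for Col-0. In bulk RNA, fewer cells that express a gene and less RNA per cell cannot be told apart.

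DREB proteins are plant transcription factors with an AP2/ERF domain, which binds the dehydration-responsive element (DRE) in promoters of drought and cold genes. The A-1 group holds the cold-induced CBF activators and the A-2 group the dehydration and heat activator DREB2A. The A-5 group mixes activators with repressors, and several A-5 repressors carry an EAR motif, a short sequence that recruits co-repressors. ORA47 is induced within a short time by wounding and jasmonate, acts downstream of the bHLH factor MYC2, and promotes genes of jasmonate and abscisic acid synthesis. DREB26 is a transcriptional activator whose overexpression alters plant development. RAP2.1 is an EAR-type repressor of cold and drought genes.

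The stretch upstream of ORA47 is shown because this gene had the largest difference among the 10, and that of RAP2.9 because it had the largest among the other 5 A-5 genes. Each is the 250 bases before the annotated gene start, read 5′ to 3′ on the gene's strand from the RefSeq TAIR10.1 genome. They lie at chr1:28143601-28143850 (+ strand) and chr4:4074736-4074985 (- strand). Capitals mark a match to the DRE core CCGAC, here on the opposite strand.
ORA47: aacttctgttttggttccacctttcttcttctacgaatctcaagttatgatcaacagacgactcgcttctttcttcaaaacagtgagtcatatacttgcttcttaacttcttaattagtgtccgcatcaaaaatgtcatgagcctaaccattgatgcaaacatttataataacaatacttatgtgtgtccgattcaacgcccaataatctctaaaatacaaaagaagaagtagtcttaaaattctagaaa
RAP2.9: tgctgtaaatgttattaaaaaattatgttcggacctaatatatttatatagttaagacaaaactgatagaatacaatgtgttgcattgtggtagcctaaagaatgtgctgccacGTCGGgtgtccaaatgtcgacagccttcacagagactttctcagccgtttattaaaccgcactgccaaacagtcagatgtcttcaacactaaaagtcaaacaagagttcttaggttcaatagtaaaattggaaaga

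The motifs searched were the DRE core CCGAC, the G-box CACGTG, which MYC factors bind and which reads the same on both strands, and CGCGTT, the core of the rapid stress response element. Both strands were read over 250 bases before to 50 after each gene start, and none of the 3 overlaps another. The DRE core stood in 15.05% of 27443 protein-coding promoters, in 0 of the 10 chosen genes and in 3 of the other 5, which were CEJ1, RAP2.9 and RAP2.10. The G-box stood in 7.678% of promoters and in 2 of the 10, AT1G19210 and AT1G71520. The sequence CGCGTT stood in 3.403% of promoters and, among the 15 A-5 genes, in AT1G19210. ORA47 held none of the 3, which says only that these letters are not in that window.

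Windows of 30 bases around the matches in the chosen genes are shown because they are the only such matches among the 10. The matches of AT1G19210 begin 249, 143 and 101 bases before its start, in windows at chr1:6627909-6627938, chr1:6627814-6627843 and chr1:6627772-6627801 on the - strand. That of AT1G71520 begins 224 bases before its start, at chr1:26938133-26938162 on the + strand. The 3 windows of AT1G19210 lie within the neighbouring gene ARF19 (AT1G19220). Capitals mark the motif, which for the rapid stress response element core lies on the opposite strand, so that CGCGTT reads AACGCG here.
AT1G19210 G-box, far: tCACGTGaaaaacaaggacaaggacaagaa
AT1G19210 G-box, near: agtaacatccgcCACGTGtccattcccctg
AT1G19210 rapid stress response element core: gttttaagtacaAACGCGctccctttgacc
AT1G71520 G-box: ttcaagtttcagCACGTGatgtcgtgatgg

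ORA47 (AT1G74930, chr1:28143851-28145058, + strand), the jasmonate and wound factor, had the largest log2 difference of the 4 among the 10 that were tested. Its level was 1.97, 1.46 and 0.681 FPKM in cnd1-3 replicates 1, 2 and 3, against 19.0, 50.5 and 43.6 FPKM in Col-0 replicates 1, 2 and 3. Every cnd1-3 library lay below every Col-0 library, and Col-0 replicate 1 was the lowest of the wild type. The mean was 1.37 ± 0.648 FPKM in cnd1-3 and 37.7 ± 16.6 FPKM in Col-0 (SD, n = 3 each). On the log2 scale of FPKM plus 0.5 the difference was -4.30 with an SE of 0.37, which is 19.7-fold lower in cnd1-3. By summed reads, 111 in cnd1-3 and 3528 in Col-0, the share of ORA47 was 26.8-fold lower in cnd1-3 (22.2 to 32.7, the exact 95% interval for counting error). Such intervals cover counting error only. An antisense gene, AT1G74929, shares 102 exon bases with ORA47 (8.44% of its exon length) and was listed at 0 in all 6 libraries. The sources used here do not give strandedness, so reads of such an overlap cannot be assigned to a strand.

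AT1G19210 (chr1:6626794-6627688, - strand) and AT5G21960 (chr5:7258037-7259568, - strand), the nearest to ORA47 by protein sequence, were also lower in the mutant, from few reads. AT1G19210 had 0.10, 0.0505 and 0.339 FPKM in cnd1-3 replicates 1, 2 and 3, against 0.367, 1.10 and 0.912 FPKM in Col-0 replicates 1, 2 and 3. The groups did not overlap, although cnd1-3 replicate 3 and Col-0 replicate 1 were close. From 10 reads in cnd1-3 and 55 in Col-0, its share was 4.64-fold lower in the mutant, with an interval of 2.34 to 10.2. AT5G21960 was listed at 0, 0 and 0.0283 FPKM in cnd1-3 replicates 1, 2 and 3, against 0.0643, 0.422 and 0.196 FPKM in Col-0 replicates 1, 2 and 3. The ratio, 22.8-fold lower in the mutant, rests on 1 cnd1-3 read and 27 Col-0 reads and has an interval of 3.75 to 932. Both genes lay under the minimum level and were not tested. AT1G19210 shares 6 exon bases with ARF19, an auxin response factor, whose log2 difference was 0.23 (limma adjusted p = 0.316).

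DREB26 (AT1G21910, chr1:7696427-7697831, + strand), the activator, was higher in the mutant. It had 20.0, 4.54 and 8.97 FPKM in cnd1-3 replicates 1, 2 and 3, against 1.96, 2.22 and 3.24 FPKM in Col-0 replicates 1, 2 and 3. All cnd1-3 libraries lay above all Col-0 libraries, but the mutant values spread widely, with replicate 1 far above replicate 2. The mean was 11.2 ± 7.99 FPKM in cnd1-3 and 2.47 ± 0.675 FPKM in Col-0 (SD, n = 3 each). The log2 difference was 1.76 with an SE of 0.42, which is 3.40-fold higher in cnd1-3. It was 1.24 without cnd1-3 replicate 1 and 2.25 without cnd1-3 replicate 2. Summed reads were 1060 in cnd1-3 and 272 in Col-0, a share ratio of 4.62 with an interval of 4.04 to 5.30.

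AT1G77640 (chr1:29178705-29179877, + strand) and AT1G44830 (chr1:16933699-16934568, + strand), the closest relatives of DREB26, had higher means in the mutant at very low levels. AT1G77640 had 0.688, 0.231 and 0.443 FPKM in cnd1-3 replicates 1, 2 and 3, against 0.168, 0.162 and 0.293 FPKM in Col-0 replicates 1, 2 and 3. Its groups overlapped, since cnd1-3 replicate 2 lay below Col-0 replicate 3. Summed reads were 36 in cnd1-3 and 19 in Col-0, a share ratio of 2.25 with an interval of 1.26 to 4.15. AT1G44830, whose overexpression in cultured cells increased pectin deposition according to the annotation, had 0.567, 0.156 and 0.398 FPKM in cnd1-3 replicates 1, 2 and 3, against 0.151, 0.262 and 0.148 FPKM in Col-0. Its groups overlapped too. With 22 reads in cnd1-3 and 13 in Col-0 the share ratio was 2.01, and its interval, 0.967 to 4.34, includes equal shares. Neither gene reached the minimum level for testing.

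**Figure D1:**
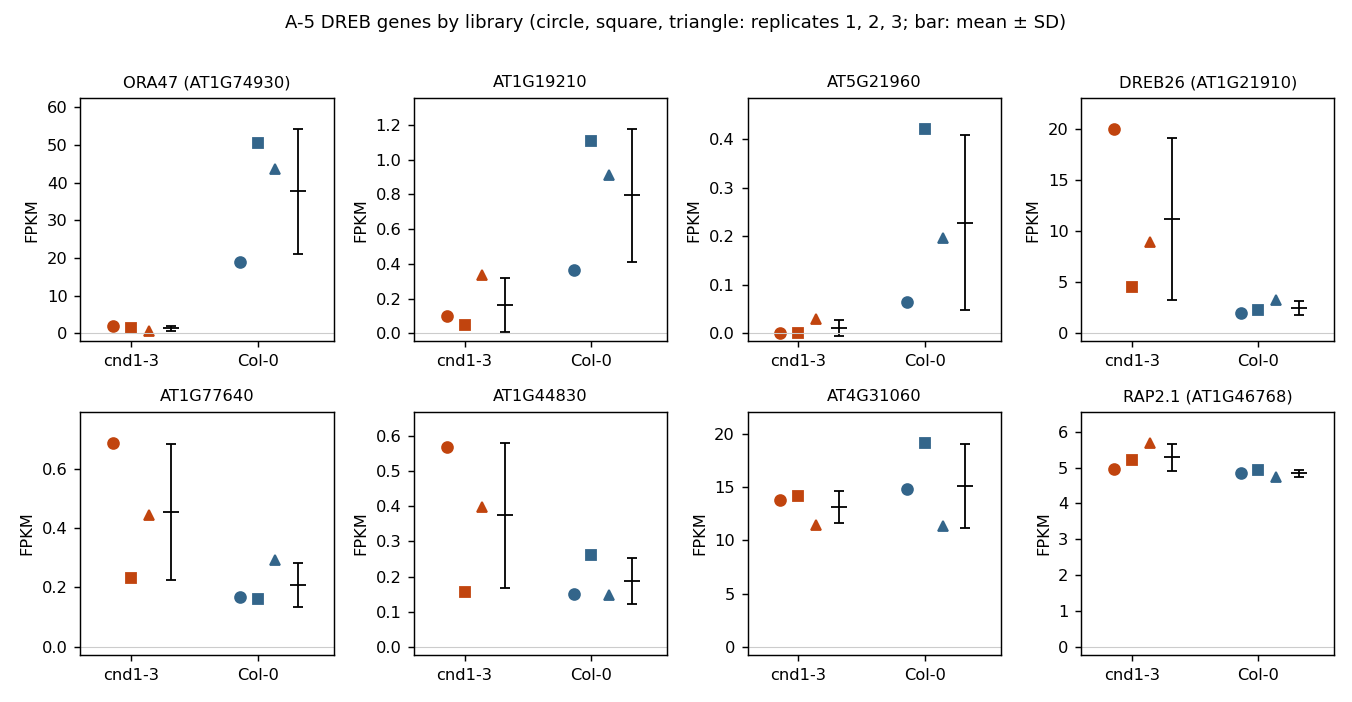
FPKM (y axis, linear, each panel on its own scale) of 8 of the 10 A-5 genes in cnd1-3 and Col-0 libraries, with circles, squares and triangles for replicates 1, 2 and 3 and a bar for the mean ± SD. ORA47, AT1G19210 and AT5G21960 are lower in every cnd1-3 library than in any Col-0 library, DREB26 is higher in every cnd1-3 library, and the groups of AT4G31060, AT1G77640 and AT1G44830 overlap.

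RAP2.1 (AT1G46768, chr1:17265586-17266824, - strand), the EAR-type repressor, was nearly level between the genotypes. It had 4.96, 5.22 and 5.70 FPKM in cnd1-3 replicates 1, 2 and 3, against 4.85, 4.94 and 4.75 FPKM in Col-0 replicates 1, 2 and 3. The groups did not overlap, but cnd1-3 replicate 1 and Col-0 replicate 2 almost met. The mean was 5.29 ± 0.377 FPKM in cnd1-3 and 4.85 ± 0.0957 FPKM in Col-0 (SD, n = 3 each), with a log2 difference of 0.11 (SE 0.09). From 443 reads in cnd1-3 and 481 in Col-0 the share ratio was 1.09, with an interval of 0.958 to 1.25.

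AT4G31060 (chr4:15116148-15117756, + strand), annotated as a maternally expressed imprinted gene, had overlapping values in the genotypes. Its level was 13.8, 14.2 and 11.4 FPKM in cnd1-3 replicates 1, 2 and 3, against 14.8, 19.2 and 11.3 FPKM in Col-0 replicates 1, 2 and 3. Replicate 3 was the lowest library of each genotype, and Col-0 replicate 2 the highest of all. The mean was 13.1 ± 1.48 FPKM in cnd1-3 and 15.1 ± 3.94 FPKM in Col-0 (SD, n = 3 each), with a log2 difference of -0.17 (SE 0.17). Without Col-0 replicate 2 that difference was 0.01, so its sign rests on that library. It shares 1 exon base with AT4G31070.

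The other 2 genes gave almost no reads. AT1G71520 (chr1:26938369-26939267, + strand) had 0 reads in cnd1-3 and 1 read in Col-0, in replicate 1, where it was listed at 0.0365 FPKM. A count of 0 allows up to 3 reads per library, which is 0.110 to 0.151 FPKM for this gene, so no fold is given. AT1G22810 (chr1:8074231-8075037, - strand) was listed at 0 in all 6 libraries. Of its exon bases, 782 (96.9%) are shared with AT1G05767, a long noncoding RNA, and AT1G22800, which were also listed at 0 throughout, so the 0 cannot be read as absence of its RNA.

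Of the 10 genes, 4 passed the minimum level, and those were ORA47, DREB26, RAP2.1 and AT4G31060. At an adjusted p of 0.05 in limma, 3.5% of all tested genes were called higher in cnd1-3, 7.59% lower and 11.1% in either direction. DREB26 was called higher and ORA47 lower, and the other 2 were not called, counts that the choice of genes had in view and from which nothing is read. Across all tested genes, 12.3% had every cnd1-3 value above every Col-0 value and 21.5% every cnd1-3 value below. Among the 4 the first held for DREB26 and RAP2.1, and the second for ORA47. The median log2 difference of all tested genes was -0.05.

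The order of levels among the 4 differed between the genotypes. In cnd1-3, AT4G31060 (13.1 FPKM) and DREB26 (11.2 FPKM) came first with overlapping ranges, then RAP2.1 (5.29 FPKM) and last ORA47 (1.37 FPKM). The range of DREB26 also spanned that of RAP2.1, since its replicate 2 had 4.54 FPKM. In Col-0 the order was ORA47 (37.7 FPKM), AT4G31060 (15.1 FPKM), RAP2.1 (4.85 FPKM) and DREB26 (2.47 FPKM), and the ranges of ORA47 and AT4G31060 overlapped by the replicate 1 value of ORA47. Being FPKM, these levels are per exon length.

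**Figure D2:**
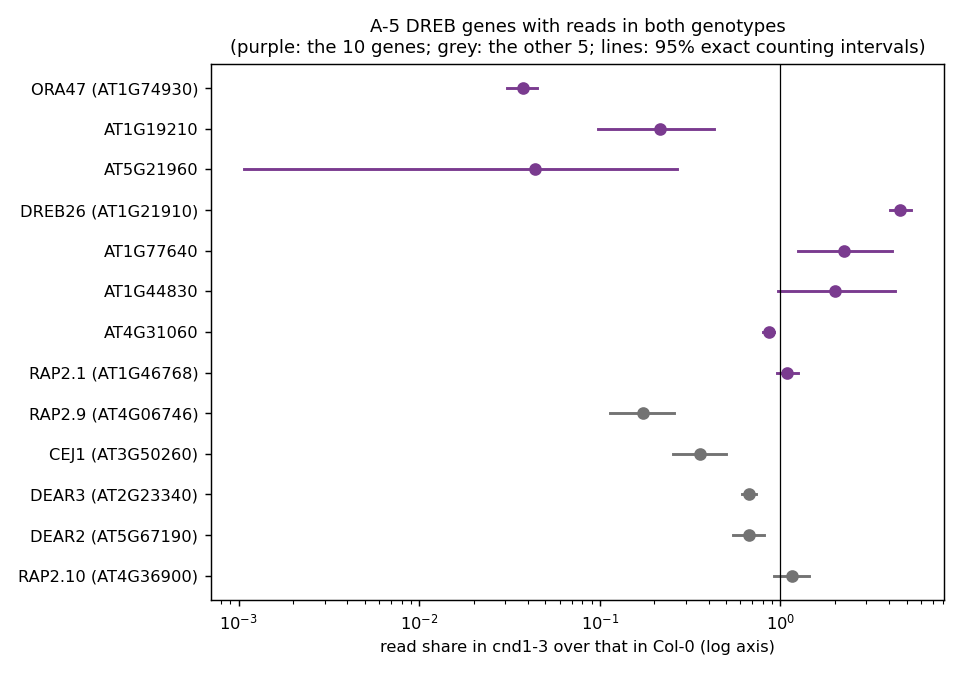
Ratio of summed read shares, cnd1-3 over Col-0 (log axis), of the 13 A-5 genes with reads in both genotypes, with 95% exact counting intervals as lines, the chosen genes in purple and the other 5 in grey. ORA47 and AT5G21960 lie farthest to the lower side and DREB26 farthest to the higher side, and the interval of AT5G21960 is the widest because it rests on 1 read in cnd1-3 and 27 in Col-0.

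Protein sequences, translated from the coding sequences of the TAIR10.1 annotation, place most of the 10 in small subgroups. ORA47 (195 residues) was most like AT1G19210, with 61.6% identity over the shorter protein, and AT1G19210 in turn shared 49.7% with AT5G21960. ORA47 and AT5G21960 shared 42.6%, little more than ORA47 shared with AT1G22810 (41.7%) or RAP2.9 (40.7%). DREB26 (230 residues) shared 67.0% with AT1G77640 and 61.1% with AT1G44830. Between ORA47 and DREB26 identity was 37.9%. The transcript shares given above were lower in cnd1-3 for ORA47, AT1G19210 and AT5G21960 and higher for DREB26, AT1G77640 and AT1G44830, the last with an interval that includes equality. Nothing is read from this match, since the genes were chosen as relatives that differ in opposite directions. AT1G22810 and AT1G71520, both with almost no reads, shared 65.7%. AT4G31060 stood apart, with DREB26 its nearest at 39.0%. RAP2.1 (153 residues) was nearest to RAP2.10, outside the 10, with 58.8%.

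The EAR motif of the DLNxxP type occurred in RAP2.1 and in no other protein of the 10. Among the other 5 A-5 proteins it occurred in 4, CEJ1, DEAR2, DEAR3 and RAP2.10, and RAP2.9 lacked it. The LxLxL type occurred in 0 of the 15. Within that second subgroup CEJ1 and DEAR2 shared 79.1% and DEAR3 and RAP2.10 72.7%. RAP2.1 shared 48.4% to 58.8% with these 5 proteins and 34.6% to 43.1% with the other 9 chosen.

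**Figure D3:**
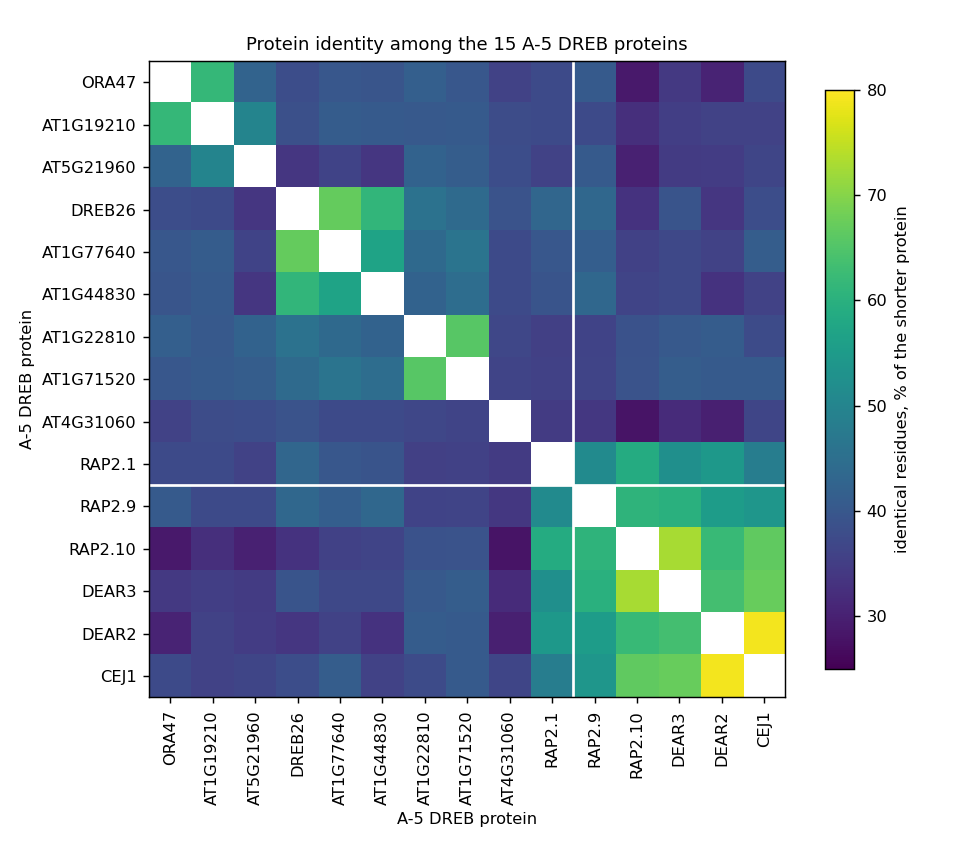
Pairwise protein identity (% of the shorter protein, colour scale) of the 15 A-5 proteins. The ORA47 subgroup (61.6% between ORA47 and AT1G19210), the DREB26 subgroup (67.0% between DREB26 and AT1G77640) and the block of RAP2.1 with the 5 proteins beyond the 10 stand out along the diagonal.

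The other 5 A-5 genes were all tested, and 3 fell in cnd1-3, beside 7.59% of all tested genes, and 0 rose. Their median log2 difference was -0.53, beside -0.05 for all tested genes. RAP2.9 (AT4G06746) fell to 0.308, 0.532 and 0.425 FPKM in cnd1-3 replicates 1, 2 and 3, against 2.74, 2.24 and 2.23 FPKM in Col-0. The groups were far apart, and the log2 difference was -1.66 (SE 0.16, limma adjusted p = 0.000676). CEJ1 (AT3G50260), also called DEAR1 and known from defence and freezing responses, had 0.509, 0.746 and 0.939 FPKM in cnd1-3 replicates 1, 2 and 3, against 2.44, 1.69 and 1.91 FPKM in Col-0. It fell by 1.03 on the log2 scale (SE 0.18, limma adjusted p = 0.010).

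DEAR3 (AT2G23340), an EAR-type relative, had 8.14, 8.69 and 9.38 FPKM in cnd1-3 replicates 1, 2 and 3, against 13.4, 14.5 and 10.9 FPKM in Col-0. Its log2 difference was -0.53 (SE 0.11, limma adjusted p = 0.0195), a call lost without cnd1-3 replicate 1 (adjusted p = 0.0733), cnd1-3 replicate 2 (0.0575), Col-0 replicate 1 (0.0588) or Col-0 replicate 2 (0.0664). DEAR2 (AT5G67190) had 1.52, 2.19 and 2.02 FPKM in cnd1-3, against 2.51, 3.40 and 2.70 FPKM in Col-0, without overlap, and missed the threshold (-0.49, SE 0.15, limma adjusted p = 0.0761). RAP2.10 (AT4G36900), also called DEAR4, had 1.99, 1.41 and 2.32 FPKM in cnd1-3, against 1.68, 1.47 and 1.84 FPKM in Col-0, with overlap (0.14, SE 0.17, limma adjusted p = 0.622). RAP2.9 and CEJ1 were called under all 13 alternatives that tested them. DREB26, with 3.40-fold higher values in cnd1-3, had no called counterpart among these 5.

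DREB genes of the other groups were lower in cnd1-3 or not called. Of 47 DREB genes beyond the 10, with the 5 above included, 27 were tested, 13 fell, 0 rose, and the median log2 difference was -0.62. The share of all tested genes called lower was 7.59%, but the lists of DREB genes were written with earlier results of these data known. In limma 19 of the 27 had an unadjusted p under 0.05, beside 28.6% of all tested genes. In the A-1 group all 3 tested genes fell, and these are the CBF cold activators, near-identical tandem genes whose reads may be split uncertainly. CBF1 had 0.626, 0.223 and 0.356 FPKM in cnd1-3, against 3.97, 8.40 and 8.15 FPKM in Col-0 (log2 difference -2.98, SE 0.28, limma adjusted p = 0.000596). It reached the minimum level for testing through Col-0 alone, with 33 reads in cnd1-3 and 647 in Col-0. CBF2 and CBF3 had log2 differences of -2.44 and -1.99 (limma adjusted p = 0.00129 and 0.000311). In all 3 genes Col-0 replicate 1 was the lowest wild-type library, as in ORA47.

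In the A-2 and A-3 groups 3 of 5 tested genes fell, 0 rose, and the median was -0.64. Beside these and the A-4 and A-6 counts below stand 7.59% called lower and a median of -0.05 over all tested genes. DREB2A, the dehydration and heat activator, had 2.04, 1.75 and 2.31 FPKM in cnd1-3, against 6.42, 16.6 and 12.5 FPKM in Col-0 (-2.19, SE 0.28, limma adjusted p = 0.00240). DREB2F and DREB2H had differences of -0.73 and -0.62 (limma adjusted p = 0.0184 and 0.0299), and their calls were lost under 3 of 13 and 8 of 14 alternatives. In the A-4 group 2 of 8 tested genes fell, AT2G44940 (-1.09, limma adjusted p = 0.00224) and TINY2 (-0.73, limma adjusted p = 0.00894), and the median was -0.45. In the A-6 group 2 of 6 fell and the median was -0.68. RAP2.4, an abundant factor of light and drought responses, had 74.0, 66.9 and 62.0 FPKM in cnd1-3, against 99.8, 149 and 117 FPKM in Col-0 (-0.83, SE 0.14, limma adjusted p = 0.00709). AT1G64380 differed by -0.83 (SE 0.09, limma adjusted p = 0.00113).

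**Figure D4:**
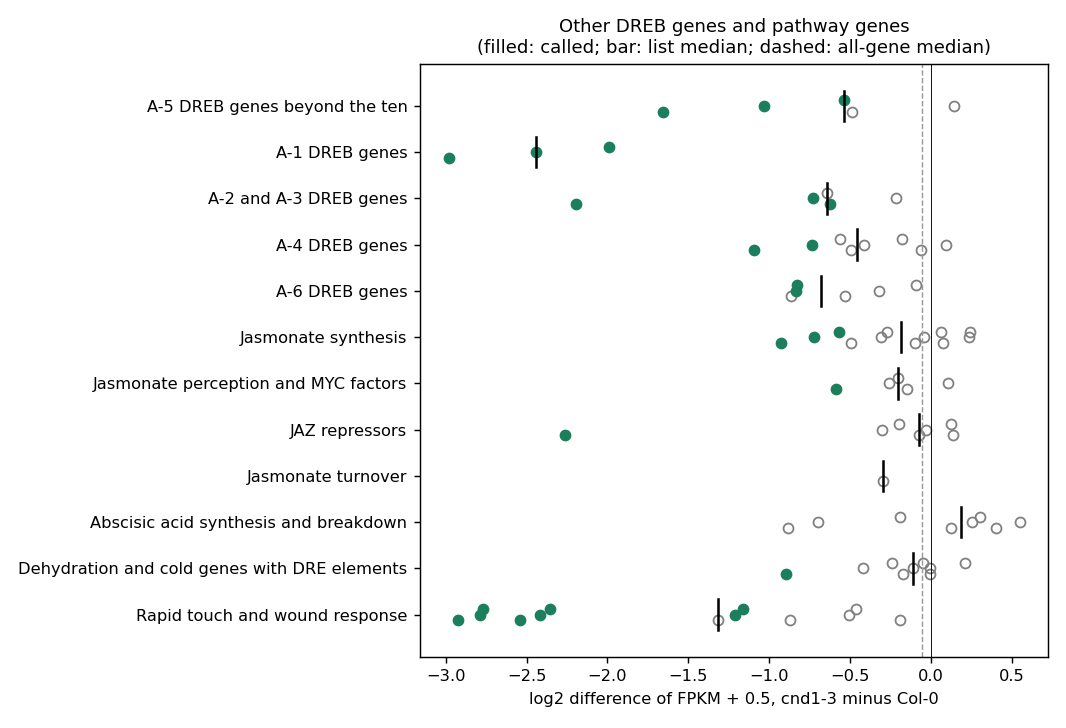
Log2 difference of FPKM plus 0.5, cnd1-3 minus Col-0 (x axis), of each tested gene in 12 lists of other DREB genes and pathway genes, with filled points for called genes, a bar for the list median and a dashed line for the median of all tested genes (-0.05). Every filled point lies below 0, and the lowest list medians are those of the A-1 DREB genes (-2.44) and the rapid touch and wound genes (-1.32).

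Genes of the pathways around ORA47 were read from lists of jasmonate, abscisic acid and stress genes, in which 55 of 86 were tested. The lists were written with earlier results of these data known, so their counts are a description. Of these 14 fell, beside 7.59% of all tested genes, 0 rose, and the median log2 difference was -0.24. In limma 27 of the 55 had an unadjusted p under 0.05, beside 28.6% of all tested genes. Upstream of ORA47 stand jasmonate perception and the MYC factors, where 1 of 5 tested genes fell, again a single gene beside that 7.59%. MYC4, a bHLH activator, had 4.16, 4.23 and 4.53 FPKM in cnd1-3, against 6.96, 6.68 and 6.51 FPKM in Col-0 (-0.59, SE 0.08, limma adjusted p = 0.00384). MYC2 was listed at 0 in all 6 libraries, but 98.5% of its exon bases are shared with AT1G32630, so its level cannot be read from the table.

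Jasmonate synthesis genes are known targets of ORA47, and 3 of 12 tested fell, beside 7.59% of all tested genes, 0 rose, with a median of -0.18. The allene oxide cyclase AOC3 had 0.297, 0.163 and 0.130 FPKM in cnd1-3, against 0.494, 1.05 and 0.983 FPKM in Col-0 (-0.93, SE 0.23, limma adjusted p = 0.0380). AOC3 reached the minimum level for testing through Col-0 alone, with 22 reads in cnd1-3 and 109 in Col-0. The CoA ligase OPCL1 and the reductase OPR3 differed by -0.72 and -0.57 (limma adjusted p = 0.0296 and 0.0386). Each of these 3 calls was lost under 5 alternatives, with adjusted p up to 0.126 for AOC3, 0.101 for OPCL1 and 0.122 for OPR3. LOX2, a lipoxygenase and the most abundant gene of the list, was not called. It had 118, 151 and 186 FPKM in cnd1-3, against 135, 116 and 130 FPKM in Col-0, with overlap.

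Among JAZ repressors 1 of 7 tested genes fell, a single gene beside the 7.59% of all tested genes called lower, and the median was -0.07. JAZ1 had 3.80, 1.55 and 2.23 FPKM in cnd1-3, against 10.1, 18.7 and 12.6 FPKM in Col-0 (-2.26, SE 0.28, limma adjusted p = 0.00213). Of 8 jasmonate turnover genes 1 was tested, ILL6, with a difference of -0.29 (limma adjusted p = 0.339). None of 6 late jasmonate response genes, such as VSP1 and PDF1.2, reached the minimum level in these libraries.

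In abscisic acid synthesis and breakdown, 0 of 8 tested genes were called in limma, 2 had an unadjusted p under 0.05, near the 28.6% of all tested genes, and the median was 0.19. The epoxidase ABA1, the most abundant, had 36.7, 43.3 and 47.2 FPKM in cnd1-3, against 29.1, 31.3 and 43.5 FPKM in Col-0, with overlap. Its difference was 0.30 (limma adjusted p = 0.231). This became a call in limma without Col-0 replicate 3 (adjusted p = 0.0333) or with the replicate number as a block (0.0418). NCED3, a rate-limiting dioxygenase and known target of ORA47, had a difference of -0.70 (limma adjusted p = 0.0844). It reached the minimum level for testing through Col-0 alone (mean 0.858 FPKM, against 0.324 FPKM in cnd1-3).

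In the list of dehydration and cold genes with DRE elements, 1 of 9 tested fell, a share near the 7.59% of all tested genes. Of the 9, 0 rose, and the median was -0.11. The elements were not checked gene by gene in these promoters. ERD10, a dehydrin, had 63.3, 57.8 and 76.0 FPKM in cnd1-3, against 113, 135 and 118 FPKM in Col-0 (-0.89, SE 0.11, limma adjusted p = 0.00200). COR15A, a chloroplast-protecting cold gene and CBF target, had 205, 277 and 323 FPKM in cnd1-3, against 267, 273 and 316 FPKM in Col-0, with overlap (-0.11, limma adjusted p = 0.671).

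The largest group of called genes was in the list of rapid touch and wound response, where 8 of 13 tested fell, beside 7.59% of all tested genes, 0 rose, and the median was -1.32. This list too was written with earlier results of these data known, so the count is a description only. ZAT12, a zinc finger factor, had 2.93, 1.57 and 1.94 FPKM in cnd1-3, against 12.9, 25.3 and 21.4 FPKM in Col-0 (-2.93, SE 0.25, limma adjusted p = 0.000488). ERF6 and WRKY40, early transcription factors, differed by -2.79 and -2.77 (limma adjusted p = 0.000596 and 0.00552). TCH4, a cell wall enzyme gene induced by touch, had 55.0, 15.7 and 22.0 FPKM in cnd1-3, against 18.1, 44.5 and 35.4 FPKM in Col-0, with overlap (-0.19, limma adjusted p = 0.814).

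Within a genotype these touch and wound genes differed between libraries in a shared order, and some of the 10 A-5 genes had the same order. In cnd1-3, replicate 1 was highest, then replicate 3, then replicate 2 in 13 of the 13 tested, beside 12.3% of all tested genes. DREB26, AT1G77640 and AT1G44830 had that order in cnd1-3. For AT1G77640 it rests on 18, 6 and 12 reads in replicates 1, 2 and 3, and for AT1G44830 on 11, 3 and 8. Counting error could change the order at such numbers. ORA47 did not have that order, since its lowest cnd1-3 library was replicate 3. In Col-0, replicate 1 was lowest in 12 of the 13, beside 37.3% of all tested genes. ORA47, AT1G19210, AT5G21960 and DREB26 were also lowest in Col-0 replicate 1, where AT1G19210 had 10 reads and AT5G21960 had 3. The order of libraries was chosen as a measure after the values were seen. Its part in the differences between the genotypes was not tested.

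**Figure D5:**
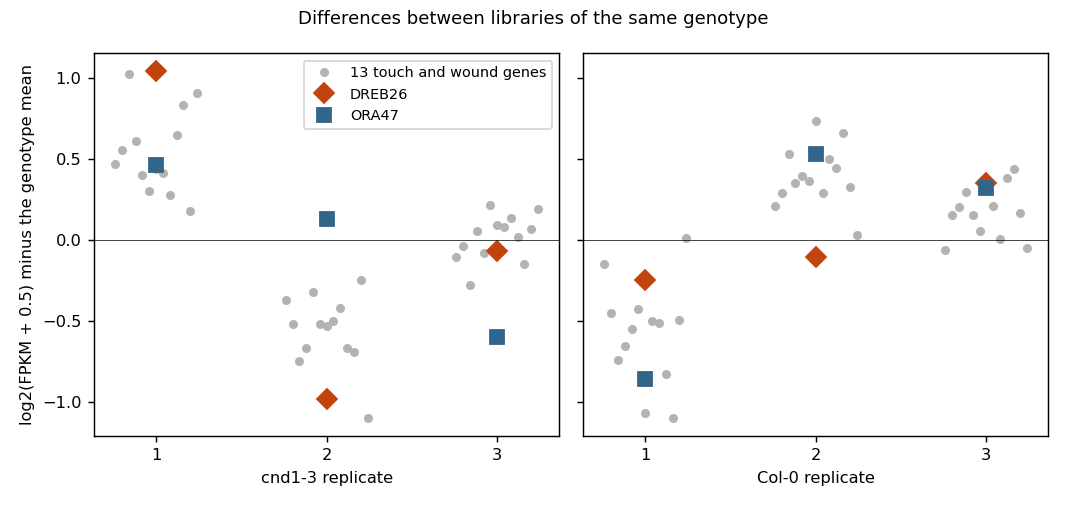
Log2(FPKM + 0.5) minus the mean of the genotype (y axis) by replicate, in cnd1-3 (left) and Col-0 (right), for DREB26 (diamonds), ORA47 (squares) and the 13 tested touch and wound genes (grey points). DREB26 follows the grey points in cnd1-3, with replicate 1 highest and replicate 2 lowest, and ORA47 follows them in Col-0, with replicate 1 lowest.

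The genes most like ORA47 and DREB26 were found by the root mean square difference of log2(FPKM + 0.5), centred on each gene's mean, over the 6 libraries. Nearest to ORA47, whose own profile had a root mean square of 2.22, were MAF5, a MADS-box gene (0.50), RTFL12, a small-peptide gene (0.51), and NUDT4, a nudix hydrolase gene (0.68). MAF5 had 0.0365, 0.0368 and 0 FPKM in cnd1-3 replicates 1, 2 and 3, against 11.4, 14.4 and 18.9 FPKM in Col-0, and its cnd1-3 values rest on 2 reads. RTFL12 had 0.855, 0.185 and 0.177 FPKM in cnd1-3 replicates 1, 2 and 3, against 5.46, 11.7 and 9.94 FPKM in Col-0. Its cnd1-3 values rest on 14, 3 and 3 reads. NUDT4 had 7.03, 5.69 and 5.30 FPKM in cnd1-3 replicates 1, 2 and 3, against 35.4, 79.2 and 53.5 FPKM in Col-0. Like ORA47, RTFL12 and NUDT4 had their highest cnd1-3 value in replicate 1 and their lowest Col-0 value in replicate 1.

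Nearest to DREB26, whose own root mean square was 1.07, were PHI-1, a phosphate-induced gene (0.25), PYL5, an abscisic acid receptor (0.29), and AT3G15450 (0.36). PHI-1 (AT1G35140) had 21.3, 4.18 and 8.19 FPKM in cnd1-3 replicates 1, 2 and 3, against 1.02, 2.24 and 2.95 FPKM in Col-0. PYL5 (AT5G05440) had 11.4, 4.78 and 6.64 FPKM in cnd1-3 replicates 1, 2 and 3, against 1.98, 1.83 and 2.43 FPKM in Col-0. AT3G15450 had 73.1, 36.2 and 42.3 FPKM in cnd1-3 replicates 1, 2 and 3, against 14.2, 19.0 and 18.6 FPKM in Col-0. All 3 shared with DREB26 the cnd1-3 order of replicate 1, then 3, then 2. These likenesses are a description of 6 libraries and rest on the difference by which the 10 genes were chosen.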

How the data were processed

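The authors deposited FPKM per gene and library for 3 cnd1-3 and 3 Col-0 libraries, and the labelled genotype defined the groups. Per the submitters' processing notes, HISAT2, featureCounts, Subread, DESeq2 and the TAIR10 build were used, whose roles, versions and settings the sources used here do not give. Multiplying FPKM by exon length recovered whole reads (within 0.01) for 99.34% to 99.37% of values above 0 in each library, and the recovered reads served for depth, counting intervals and 1 alternative fit.

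Genotypes were compared by limma 3.58.1 (R 4.3.3, intensity trend in eBayes) on log2(FPKM + 0.5) for genes with a mean of at least 0.5 FPKM, which understates the change of low genes. The mean spans both genotypes, so a gene can pass through 1 genotype alone. Among the genes named, RAP2.9, CBF1, AOC3, NCED3, MAF5 and RTFL12 passed through Col-0 alone. P-values were adjusted by the Benjamini-Hochberg method over all 17096 genes tested, with a threshold of 0.05. The procedure was run on simulated reads with the same scatter for every gene and no library differences shared between genes. That run therefore does not measure the error of the calls in these data. The 10 genes and the 13 gene lists, with 133 loci, were chosen with earlier results of these data known. Besides the 10 genes, the text names the genes that overlap them, the 3 genes nearest in profile to ORA47 and to DREB26, and up to 3 called genes of each list with the largest difference, or the most abundant where none was called. NCED3, LOX2, COR15A, TCH4, DEAR2 and RAP2.10 were named after their values were seen. Alternatives were pseudocounts of 0.1 and 1, no minimum or one of 2 FPKM, median-ratio scaling, quantile normalization, the replicate number as a block, voom on recovered reads and leaving out each library. Motifs, translated proteins and coordinates came from the RefSeq TAIR10.1 genome and annotation, with Biopython 1.88 under Python 3.11.15.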

Additional observations from a re-analysis of the deposited data

How the results depend on the processing

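The differences of ORA47 and DREB26 kept their direction under all 14 alternatives, ORA47 between -4.77 with voom and -3.96 with a pseudocount of 1, and DREB26 between 1.24 and 2.25. Leaving out 1 library gave -4.73 to -4.002 for ORA47, 0.06 to 0.16 for RAP2.1 and -0.36 to 0.01 for AT4G31060. RAP2.1 was 0.22 with quantile normalization. Over all genes, 598 were called higher and 1298 lower, so that 68.5% of calls were lower. The number called higher was 946 with median-ratio scaling and 980 with quantile normalization, where 54.2% and 50.5% of calls were lower. Without 1 library it lay between 260 and 549, and the number called lower between 613 and 1299. Of the pathway genes 0 were called higher, against 1 with median-ratio scaling, 2 with quantile normalization, 1 with voom, 1 with the replicate block (ABA1, adjusted p = 0.0418 in limma) and 0 to 1 without 1 library. Calls of lower among other DREB genes ranged from 10 to 13 and among pathway genes from 11 to 17 without 1 library. The cause of these shifts was not tested. Same-numbered libraries deviated together with correlations of 0.03, 0.16 and 0.26, so the numbers were not taken to pair the samples. With the replicate block 1020 genes were called higher and 1859 lower, 14 of them other DREB genes and 17 pathway genes. At this depth AT1G19210, AT5G21960, AT1G77640 and AT1G44830 had 1 to 36 reads in cnd1-3 and 13 to 55 in Col-0, AT1G71520 had 0 and 1, AT1G22810 had 0 in both, and none of these 6 genes was tested.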
